A study of Mus musculus with 43 samples.

Results

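The small RNAs of the cauda epididymis were compared with those of the caput epididymis in WT mice, in 6 ARM-seq tissue libraries out of the 43 small RNA libraries of the series. The libraries were chosen by their labels alone, 3 of WT caput and 3 of WT cauda tissue, and all RNA classes counted in them were included. The mice were FVB, between 8 and 12 weeks old, and carried no deletion and no treatment. Other comparisons of the same segments served as a reading beside it, KO cauda against KO caput tissue from mice that lacked Rnase9-12 (3 libraries each, ARM-seq) and WT cauda against WT caput luminal fluid (3 libraries each, OTTR-seq, total RNA of several mice per library). Whether each tissue library came from 1 mouse is not given in the sources used here, and p-values measure only the spread between these libraries. The section entry of WT caput replicate 3 names the cauda, whereas its title and description name the caput, and it was kept as caput. Its log2 values correlated at 0.969 or higher with the other caput libraries and at 0.948 or lower with the cauda libraries. For the fluid libraries, too, the section entries of the caput samples name the cauda and the titles name the caput.

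The epididymis is a coiled tube in which sperm mature as they pass from the caput through the corpus to the cauda, where they are stored. Its wall is an epithelium that secretes into the lumen, surrounded by smooth muscle that is thicker towards the cauda, and each segment expresses its own set of genes. Small RNAs of this tissue include miRNAs, which guide the silencing of mRNAs through a seed near their 5′ end, fragments of tRNAs (tRFs) and of rRNAs (rsRNAs), and snoRNAs and snRNAs, which guide RNA modification and splicing. In tissue RNA, fewer cells of a type and less RNA per cell cannot be told apart.

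The counts summed to between 31942688 and 249732714 per library, with a median of 83046823 in caput and 40482735 in cauda tissue. These sums are not numbers of reads, since a read that matched several entries equally well was counted on each, and 207 of the RNAs tested matched another RNA count for count in all 6 libraries. Replicates of a segment differed by more than sampling noise, as the chi-square of their counts, divided by its degrees of freedom, ran from 225 to 2547. Levels are given as CPM, counts scaled with TMM to a common library total. Of the 4890 RNAs listed, 3488 passed the filter on low counts and were tested with edgeR's quasi-likelihood test. An RNA was called where its log2 fold change exceeded 1 in size and its Benjamini-Hochberg adjusted p was under 0.05.

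Between the ends of the WT epididymis, 803 of the 3488 RNAs tested (23.0%) were called, 549 higher in the cauda (15.7%) and 254 lower (7.28%). The RNAs higher in the cauda were mainly pieces of 18S, 28S and mitochondrial rRNA, piRNA loci and miRNA entries, and those lower were mainly 5S rRNA repeats, snoRNAs, snRNAs and tRFs. Without WT caput replicate 3, 547 were higher and 234 lower, among them 148 28S repeats, 215 genic piRNA entries and 50 miRNA entries higher and 58 snoRNAs lower. The lower calls depended more on single libraries than the higher ones, with 106 lower without caput replicate 1, 59 without cauda replicate 2 and 101 without cauda replicate 3, of which 104, 55 and 92 were among the 254. They also depended on the scaling. With TMM factors computed without tRFs, tRNAs and rsRNAs, 484 were higher and 398 lower, and the median log2 fold change of all RNAs moved by -0.34, against a move of -0.42 with scaling to total counts. The log2 fold changes below are therefore differences relative to the bulk of the RNAs. The values of the cauda and caput libraries did not overlap for 1321 RNAs (37.9%).

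**Figure D1:**
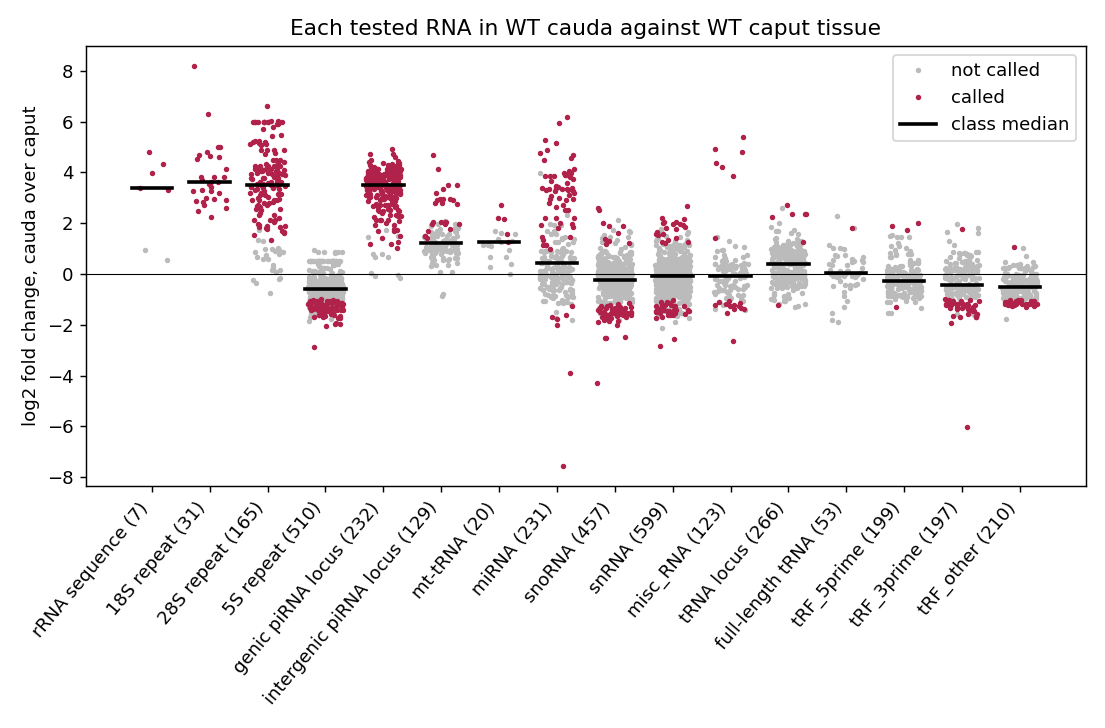
Log2 fold change of each tested RNA between WT cauda and WT caput tissue (vertical axis, edgeR) by RNA class (horizontal axis, number tested in parentheses); points are RNAs and the line across 0 marks no difference. The 18S and 28S repeats and the genic piRNA loci sit around medians of 3.62, 3.51 and 3.52, the 5S repeats around -0.58, and miRNAs around 0.41.

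As a share of all counts, the rRNAs were the most different classes. The 28S sequences and repeats, derived from the large cytoplasmic ribosomal subunit, took 1.19%, 1.52% and 2.53% of the counts in the caput libraries and 12.5%, 11.8% and 13.5% in the cauda libraries. The 18S sequence and repeats, from the small subunit, took 0.254%, 0.316% and 0.427% in the caput and 3.44%, 3.19% and 4.08% in the cauda. Mitochondrial rRNA rose from 0.0165%, 0.0228% and 0.0274% of caput counts to 0.268%, 0.352% and 0.306% of cauda counts. All 3 cauda libraries were above all 3 caput libraries for each of these shares, by 7.21-fold, 10.7-fold and 13.9-fold of the means. The 5S sequence and repeats, which are transcribed apart from the other rRNAs, went the other way, with 80.7%, 81.04% and 82.4% in the caput and 68.6%, 74.4% and 64.5% in the cauda, again without overlap. Together, the rsRNAs took 84.1% ± 1.81 (SD, n = 3) and 86.5% ± 3.46 (SD, n = 3), and these overlapped. This sum rests on reads counted on many repeats. When a single entry, the most counted, stood for each rRNA type and each tRF sum, rsRNAs took 17.1%, 19.3% and 24.6% of the caput counts and 44.2%, 49.9% and 40.1% of the cauda counts, without overlap. The class of miRNA entries also holds abundant pieces of other small RNAs, so its share is not one of miRNAs alone. Gm47295 and Gm47299, within 7SL RNA genes, had means of 161 and 163 CPM in the caput. In the cauda these entries had 103 and 105 CPM, and neither was called. miRNA entries took 0.119%, 0.1003% and 0.208% in the caput and 0.109%, 0.0602% and 0.131% in the cauda, which overlapped. tRFs and snRNAs overlapped as well, with 4.18% ± 0.404 and 9.65% ± 2.36 in the caput and 2.69% ± 1.85 and 9.33% ± 1.65 in the cauda (SD, n = 3). As a share of the counts outside the 5S repeats, all 3 classes were lower in every cauda library. tRFs then took 20.7%, 17.9% and 23.2% in the caput and 6.10%, 4.68% and 13.02% in the cauda, snRNAs 52.5%, 52.8% and 36.1% against 32.1%, 27.2% and 26.97%, and miRNA entries 0.567%, 0.483% and 1.08% against 0.330%, 0.220% and 0.356%. In 2-sided exact permutation tests, none of the 28 shares could pass a p of 0.05, since 3 against 3 libraries allow no p below 0.1, and the lowest adjusted p was 0.215.

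**Figure D2:**
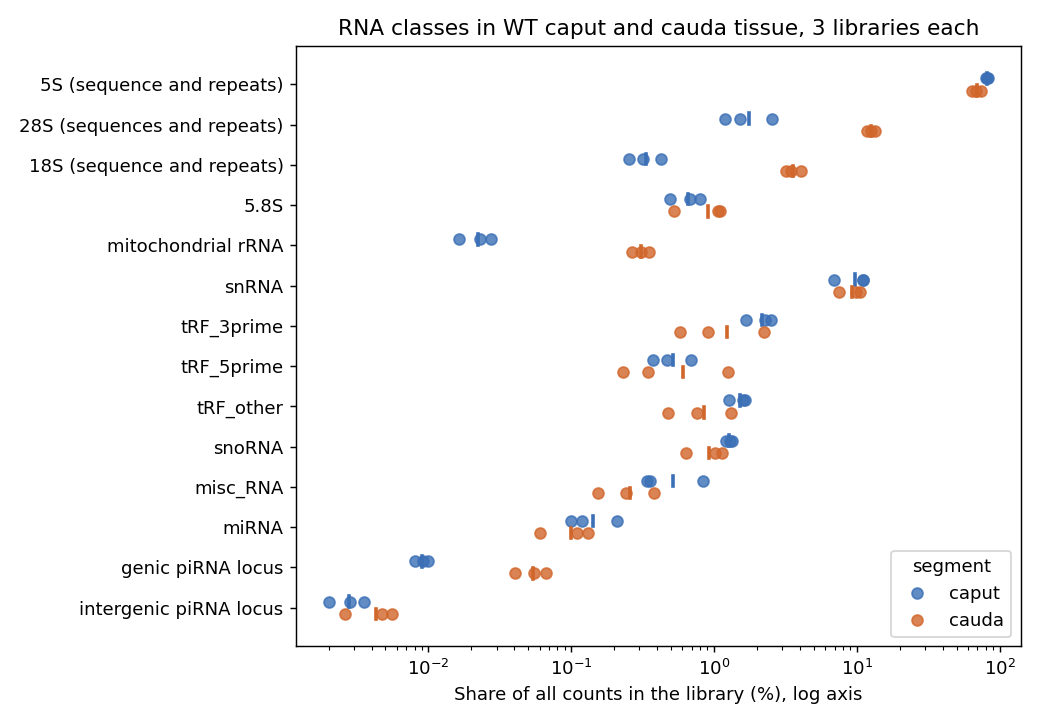
Share of all counts in each library (horizontal log axis, percent) of RNA classes in WT caput and WT cauda tissue, with 3 libraries per segment as points. The 28S, 18S and mitochondrial rRNA shares lie higher in every cauda library, the 5S share lies lower, and the tRF and miRNA shares overlap.

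For 18S, 28S and mitochondrial rRNA, the reference sequences gave the same picture for single entries. 18S_rRNA had 1755, 1865 and 2329 CPM in the caput libraries and 32389.8, 40519 and 20074 CPM in the cauda libraries. The segments did not overlap, and the log2 fold change was 3.97 (SE 0.53, edgeR adjusted p = 4.09e-05). 28S_rRNA_1 had 3071, 3394 and 5219.6 CPM in the caput and 39706, 52674 and 23893 CPM in the cauda, a log2 fold change of 3.31 (SE 0.46, adjusted p = 5.19e-05), and 28S_rRNA_2 followed it with 3.37 (SE 0.47, adjusted p = 5.51e-05). SSU_mito, the 12S rRNA of the mitochondrial ribosome, had 29.0, 38.5 and 35.7 CPM in the caput and 863, 1458 and 584 CPM in the cauda, which was the largest change of these sequences, with a log2 fold change of 4.82 (SE 0.53, adjusted p = 1.40e-05). LSU_mito, the mitochondrial 16S rRNA, had 98.9, 118 and 154 CPM against 1984, 3978 and 1524 CPM (log2 fold change 4.34, SE 0.50, adjusted p = 1.76e-05). The small cytoplasmic rRNAs moved less. 5_8S_rRNA had 3783, 4636 and 5513 CPM in the caput and 11365, 8154 and 7625 CPM in the cauda, without overlap, but its log2 fold change of 0.96 (SE 0.39, adjusted p = 0.0888) did not pass. 5S_rRNA had between 11004 and 13789.7 CPM in the caput and between 8466 and 28137 CPM in the cauda, and the segments overlapped (log2 fold change 0.54, SE 0.44, adjusted p = 0.416; the sign turns to -0.14 with scaling to total counts).

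**Figure D3:**
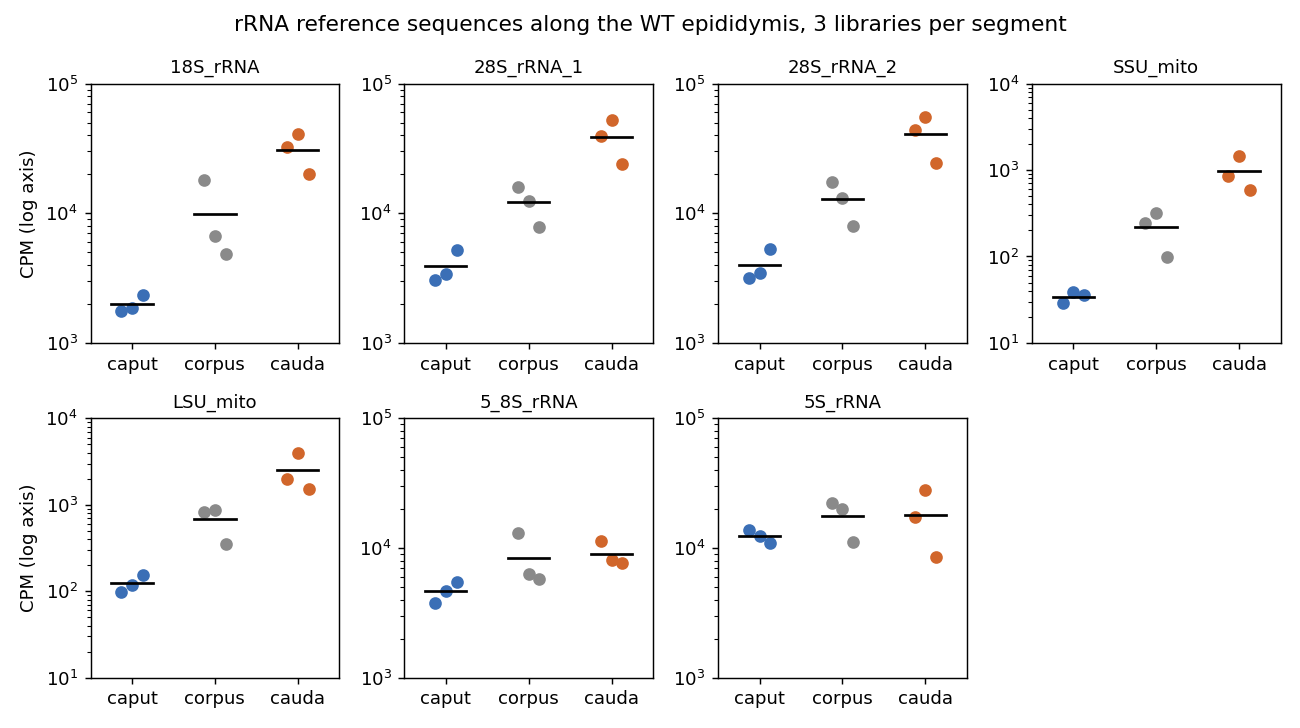
Levels (CPM, log axis) of the rRNA reference sequences in WT caput, corpus and cauda tissue, with 3 libraries per segment as points. 18S, 28S and the mitochondrial rRNAs step up from caput to corpus to cauda, whereas the 5S libraries overlap between segments.

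The genomic repeats of 18S and 28S rRNA were higher in the cauda as well, whereas many of the 5S repeats, unlike 5S_rRNA itself, were lower. All 31 18S repeats tested were higher in the cauda, with a median log2 fold change of 3.62, and so were 140 of the 165 28S repeats (median 3.51), against 15.7% of all RNAs. rmsk_18S_472 had 62.5, 70.8 and 235 CPM in the caput and 1865, 4822 and 5010.5 CPM in the cauda (log2 fold change 4.99, SE 0.56, adjusted p = 1.55e-05). rmsk_28S_390 had 7.18, 13.8 and 8.27 CPM against 525, 731 and 346 CPM (log2 fold change 5.78, SE 0.41, adjusted p = 1.43e-07). These repeats share reads with each other and with the reference sequences, so they are not separate observations, and rmsk_18S_0 had the counts of SSU_mito. Of the 510 5S repeats tested, none was called higher and 72 were lower, against 7.28% lower over all RNAs. Their median log2 fold change was -0.58. When the most counted entry stood for each rRNA type, the 5S repeat kept had a log2 fold change of 0.31 and was not called. The lower calls thus do not describe the most counted 5S repeat. rmsk_5S_1141 had 6.34, 7.25 and 5.95 CPM in the caput and 2.19, 2.14 and 2.73 CPM in the cauda (log2 fold change -1.46, SE 0.27, adjusted p = 0.000711). The 5S count rested on several libraries, with 36 lower without caput replicate 1, 30 without cauda replicate 2 and 39 without cauda replicate 3, and 97 in the fit with a replicate block. No 5S repeat was called higher in any of the 6 sets with 1 library left out, except 5 without cauda replicate 3.

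piRNA loci formed the largest group of RNAs that were higher in the cauda. piRNAs are small RNAs of the germ line that silence transposons, and the annotation used for counting divides their testis loci into genic ones, named for a gene, and intergenic ones. Counts on these entries do not tell piRNAs from other pieces of RNA of the same locus or gene, and read lengths were not examined. Of the 232 genic entries tested, 221 were higher and none lower, with a median log2 fold change of 3.52. They lie on 110 loci, of which 107 had at least 1 higher entry and 103 had only higher entries. Without 1 library, between 211 and 219 entries were higher. pi-Rc3h1.1 had 0.205, 0.195 and 0.183 CPM in the caput and 4.05, 3.97 and 2.21 CPM in the cauda, a log2 fold change of 4.12 (SE 0.48, adjusted p = 1.83e-05). pi-Ip6k1.5 had between 0.108 and 0.171 CPM in the caput and between 1.82 and 3.17 CPM in the cauda (log2 fold change 4.26, SE 0.52, adjusted p = 2.84e-05). Intergenic loci changed less often, with 26 of 129 entries higher on 15 of 68 loci, none lower, and a median of 1.21. This rate of higher calls is not far from the 15.7% over all RNAs. With the replicate block, 56 of them were higher, and 43 without caput replicate 1. The difference between genic and intergenic loci was not tested. 7-qD2-40.1, an intergenic entry, had 0.103, 0.195 and 0.117 CPM in the caput and 4.38, 3.78 and 2.30 CPM in the cauda (log2 fold change 4.67, SE 0.56, adjusted p = 2.27e-05). All piRNA loci together took 0.0118% ± 0.000221 of the counts in the caput and 0.0582% ± 0.0142 in the cauda (SD, n = 3).

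Many miRNA entries and miscellaneous RNAs that lie within exons of long RNAs were higher in the cauda as well, whereas snoRNAs in such places were not, with 1 higher and none lower of the 88 in exons of protein-coding genes. Of the 231 miRNA entries tested, 27 lie within exons of protein-coding genes in the mm10 annotation, and 15 of these were higher and none lower, with a median log2 fold change of 3.25. Gm27597, on 11:98029413-98029492 within an exon of Rpl19, a protein of the large ribosomal subunit, had 0.00934, 0.0488 and 0.0305 CPM in the caput and 0.664, 0.534 and 0.343 CPM in the cauda (log2 fold change 4.05, SE 0.50, adjusted p = 2.89e-05). Gm26377, within an exon of Eef1a1, an elongation factor of translation, had between 0.205 and 0.569 CPM in the caput and between 3.91 and 6.30 CPM in the cauda (log2 fold change 3.65, SE 0.53, adjusted p = 7.79e-05). Gm47302, within an exon of Col3a1, a fibrillar collagen of connective tissue, had between 0.524 and 0.616 CPM against 4.38 to 6.34 CPM (log2 fold change 3.25, SE 0.50, adjusted p = 0.000137). Gm25994 and Mir3064, both within exons of Ddx5, an RNA helicase, had log2 fold changes of 5.29 (SE 0.93, adjusted p = 0.000394) and 4.77 (SE 0.73, adjusted p = 0.000125). Of the other entries in places where a gene overlaps on the same strand, 17 of the 46 in exons of other genes were higher. None of the 26 that overlap another small RNA was called in either direction. Some entries in exons of other genes are not separate observations. Gm27907, Gm27529 and Gm27288, in pseudogenes of Rpl19, had nearly the counts of Gm27597. In the cauda libraries, Gm27907 had 20, 14 and 81 counts and Gm27597 had 20, 14 and 79. Entries without a record in the RefSeq miRNA table were higher in 33 of 82 cases and lower in 1. Those with a record were higher in 28 of 149 cases and lower in 6. Over all RNAs, 15.7% were higher, which is near the share of entries with a record, and 7.28% were lower. Among the miscellaneous RNAs, 6 of the 7 higher ones lie in exons of the long nuclear RNAs Malat1 (Gm27694), Neat1 (Gm27533, Gm27505 and Gm28006) and Tug1 (Gm27624 and Gm27937). Gm27694 had 0.0280, 0.122 and 0.0278 CPM in the caput and 1.66, 2.18 and 0.660 CPM in the cauda (log2 fold change 4.81, SE 0.87, adjusted p = 0.000517). The 7 entries were named here because they were few, after their values were seen, and Gm25780 is the seventh.

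Against 15.7% of all RNAs called higher, of the mitochondrial tRNAs 5 of 20 gene entries were higher and none lower (median log2 fold change 1.26), and 8 of 20 locus entries (median 1.43). Both kinds of entry stand for mitochondrial tRNAs, so their counts are not separate observations. With the replicate block, 10 gene entries and 14 locus entries were higher. Of the gene entries, 2 were higher without caput replicate 2 and 3 without caput replicate 1 or cauda replicate 1. mt-Tt, which carries threonine, rose by a log2 fold change of 2.70, and mt-Tf, which carries phenylalanine, by 2.22. The 5 called entries, mt-Tf, mt-Tt, mt-Tl1, mt-Tc and mt-Th, were listed after their values were seen.

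Mature sequences are shown here for miRNAs that the results below describe in tissue and in fluid. The sequences come from RefSeq (GRCm38.p6), of the arm usually reported as the more abundant, and read 5′ to 3′ with the seed, bases 2 to 8, in capitals. The first 3 were lower in the cauda, the next 3 higher, and the last is shown for comparison with miR-146b.
mmu-miR-204-5p: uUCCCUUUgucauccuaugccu
mmu-miR-146b-5p: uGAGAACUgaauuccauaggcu
mmu-miR-148a-3p: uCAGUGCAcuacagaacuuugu
mmu-miR-196b-5p: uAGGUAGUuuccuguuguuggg
mmu-miR-196a-5p: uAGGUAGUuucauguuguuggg
mmu-miR-99a-5p: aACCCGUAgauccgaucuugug
mmu-miR-146a-5p: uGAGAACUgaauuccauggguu
miR-196a and miR-196b share a seed and differ by 1 base, A12C counted from the 5′ end of miR-196a. miR-146a and miR-146b also share a seed and differ by 2 bases, G18A and U21C counted from the 5′ end of miR-146a. The counted entries are hairpins, so the arms were not told apart.

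Of the 231 miRNA entries tested, 61 were higher and 7 lower in the cauda, against 15.7% higher and 7.28% lower over all RNAs. Entries with a RefSeq record were higher in 28 of 149 cases, near the share over all RNAs, and those without one in 33 of 82. The median log2 fold change of all miRNA entries was 0.41. It fell to -0.04 with scaling to total counts and to 0.05 with TMM factors computed without tRFs, tRNAs and rsRNAs. With the replicate block, 73 were higher and 16 lower. When the miRNA entries were scaled among themselves, a setting added once the data had been seen, 49 were higher and 33 lower among 226 tested, so the balance of directions among miRNAs moved with the scaling. Without 1 library, between 46 and 63 were higher. The lower calls numbered 3 without caput replicate 1, 4 without caput replicate 3, 2 without cauda replicate 2 and 3 without cauda replicate 3.

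Mir375 had the largest difference among miRNAs. This miRNA, known from endocrine and other secretory epithelia, lies between genes on 1:74900658-74900721 and had 2.13, 0.597 and 1.70 CPM in the caput libraries. In the cauda it had 0, 0 and 0.00869 CPM, the latter from 2 counts against 888 counts in the 3 caput libraries. Every caput library was above every cauda library, and the ratio of the libraries' summed counts per total was 232 (95% counting interval 63.9 to 1915). The fitted log2 fold change was -7.57 (SE 0.80, edgeR adjusted p = 9.86e-06), with -7.19 or lower under every alternative run.

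Mir204, on 19:22750605-22750672 in an intron of Trpm3, had 0.504, 0.134 and 0.938 CPM in the caput and 0.0332, 0.0382 and 0.0347 CPM in the cauda. The segments did not overlap, and the log2 fold change was -3.91 (SE 0.75, adjusted p = 0.00124), called in every alternative run. Mir146b, on 19:46342762-46342870, a relative of miR-146a, had 3.27, 0.634 and 2.53 CPM in the caput and 0.564, 0.344 and 0.643 CPM in the cauda, where the highest cauda library exceeded the lowest caput library (log2 fold change -2.01, SE 0.52, adjusted p = 0.00844). Its call was lost without caput replicate 1 (-1.48, adjusted p = 0.0578) and without cauda replicate 2 (-1.67, adjusted p = 0.0553). Mir148a, on 6:51269812-51269910, which is abundant in secretory tissues, had 50.5, 10.8 and 20.1 CPM in the caput and 13.2, 4.16 and 6.13 CPM in the cauda, and these overlapped (log2 fold change -1.79, SE 0.53, adjusted p = 0.0205). This rested on caput replicate 1, without which the log2 fold change was -0.84 (adjusted p = 0.300), and the call was also lost without cauda replicate 2 (-1.30) or replicate 3 (-1.49). The other lower ones were Mir320 (-1.28, adjusted p = 0.0261), Mir135a-2 (-1.69, adjusted p = 0.0386) and Mir20a (-1.60, adjusted p = 0.0483), whose calls were each lost in 4 or more of the alternatives. Without caput replicate 3, for example, Mir320 had -0.85 (adjusted p = 0.142), Mir135a-2 had -1.75 (adjusted p = 0.0569) and Mir20a had -1.43 (adjusted p = 0.133).

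Mir196b, encoded in the HoxA cluster on 6:52230081-52230165, had the largest rise among the miRNAs with a RefSeq record that were counted in the caput (Mir1898, at 0 in every caput library, has no ratio). It had 0.00934, 0 and 0.0167 CPM in the caput libraries, from 1, 0 and 6 counts, and 0.664, 0.382 and 1.22 CPM in the cauda libraries (log2 fold change 5.95, SE 0.69, adjusted p = 1.76e-05). Mir196a-1 of the HoxB cluster had 0.0280, 0.0122 and 0.0222 CPM against 0.133, 0.0763 and 0.152 CPM (log2 fold change 2.53, SE 0.67, adjusted p = 0.00987), and Mir196a-2 of the HoxC cluster had a log2 fold change of 2.72 (SE 0.69, adjusted p = 0.00899). The segments did not overlap for any of the 3 genes, but both miR-196a calls were lost without cauda replicate 3 (adjusted p = 0.0867 and 0.0870). miR-196a genes share their mature sequence, so their entries share reads. Of the 5 Hox cluster miRNAs tested, these 3 were higher and none lower. Mir10a, a HoxB cluster miRNA and one of the most abundant in these libraries, had 46.7, 15.1 and 35.6 CPM in the caput and 39.2, 24.3 and 29.3 CPM in the cauda (log2 fold change -0.07, SE 0.35, adjusted p = 0.916).

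The miRNAs of muscle formed the other group with higher levels in the cauda. Mir143, the most abundant of them, had 37.4, 19.0 and 22.5 CPM in the caput and 206, 102 and 148 CPM in the cauda, and every cauda library was above every caput library (log2 fold change 2.53, SE 0.36, adjusted p = 7.14e-05). Its cluster partner Mir145a had between 1.55 and 5.14 CPM against 5.96 to 11.6 CPM (log2 fold change 1.47, SE 0.50, adjusted p = 0.0423), a call that was lost without cauda replicate 1 (1.47, adjusted p = 0.0836), cauda replicate 3 (1.39, adjusted p = 0.0884), caput replicate 1 (1.51, adjusted p = 0.0853) or caput replicate 2 (1.15, adjusted p = 0.157). Mir1a-1 and Mir1a-2, which had identical counts, had 0.915, 0.354 and 0.358 CPM in the caput and 3.39, 1.83 and 2.24 CPM in the cauda (log2 fold change 2.20, SE 0.45, adjusted p = 0.00135). Of the 6 muscle miRNA entries tested, 4 were higher and none lower, against 15.7% higher over all RNAs. Mir133a-1 (1.68, adjusted p = 0.202) and Mir133a-2 (1.69, adjusted p = 0.197) did not pass. This pair had nearly the same counts, so, as with Mir1a-1 and Mir1a-2, the entries are not separate observations. The summed level of the muscle list, most of it Mir143, was 21.3 to 42.2 CPM in the caput and 112 to 222 CPM in the cauda. Of the 8 epithelial miRNAs, Mir375 was lower and the other 7, among them the miR-200 family, had log2 fold changes between -1.12 and 0.16 that did not pass (with the replicate block, Mir429 was lower too, -1.15, adjusted p = 0.0285). The list's summed level of 9.02 to 27.1 CPM in the caput overlapped that of 9.54 to 16.8 CPM in the cauda. The part of the muscle share of the tissue in these results was not tested.

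Other lists held few calls. Neither the let-7 family (12 tested, log2 fold changes from -0.70 to 0.91) nor the miR-30 family (6 tested, from -0.46 to 0.70) nor the 6 fibroblast miRNAs (from 0.10 to 0.80) had a called member. Of the 6 miRNAs of the miR-99, miR-100 and miR-125 families, Mir99a was higher, with 2.74, 1.39 and 1.59 CPM in the caput and 8.86, 6.87 and 5.87 CPM in the cauda (log2 fold change 1.91, SE 0.39, adjusted p = 0.00136). Of the 9 miR-17 cluster members, Mir20a was lower, and of the 6 miRNAs of the Dlk1-Dio3 locus, Mir127 was higher (log2 fold change 1.002, adjusted p = 0.0425), a call lost without caput replicate 2 (0.86, adjusted p = 0.134), caput replicate 3 (0.90, adjusted p = 0.126) or cauda replicate 1 (0.85, adjusted p = 0.137). The single erythroid miRNA tested, Mir486, was higher (log2 fold change 3.42, SE 0.59, adjusted p = 0.000397), from 2, 1 and 6 counts in the caput libraries and 5, 5 and 44 in the cauda libraries. It lies on the strand opposite Mir3107, and as the strand used in counting is not stated, the pair cannot be told apart. The endothelial miRNA tested (log2 fold change -0.25), the leukocyte miRNA Mir142 (1.38) and that of the miR-34 and miR-449 family (-0.03) were not called. Nor was the 1 tested of the miR-322 to miR-503 cluster (-0.11). The leukocyte list also holds miR-146a, whose gene is entered under the name Mir146 and was called higher (1.80). Mir142 was higher in the fit with the replicate block (1.35, adjusted p = 0.0419). So were Mir379 (1.36, adjusted p = 0.0300), Mir411 (1.96, adjusted p = 0.0249) and Mir541 (1.66, adjusted p = 0.0218) of the Dlk1-Dio3 locus. Mir125a (-1.06, adjusted p = 0.0186) and Mir17 (-1.84, adjusted p = 0.0326) were lower with the block. No member of the miR-192, miR-194 and miR-215 group or of the Sfmbt2 intron passed the filter on low counts.

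X-linked miRNAs of spermatogenic cells were rare in the tissue. Their summed level was 0.243, 0 and 0.128 CPM in the caput and 1.23, 0.0382 and 1.32 CPM in the cauda, so cauda replicate 2 lay within the caput range. Of the 5 tested, Mir881 (log2 fold change 3.30, adjusted p = 0.0219) and Mir465c-1 and Mir465c-2 (3.34 each, adjusted p = 0.0111, identical counts) were called higher, with cauda replicate 2 at 0 for each. Mir465b-1 and Mir465b-2 were higher in the fit with the replicate block (1.96 each, adjusted p = 0.0449). Without cauda replicate 3, the calls of Mir465c-1 (2.42, adjusted p = 0.257) and Mir881 (3.50, adjusted p = 0.0519) were lost, and that of Mir881 was also lost without cauda replicate 1 (2.68) and without caput replicate 2 (2.92) or 3 (3.001). Whether sperm or germ cells in the lumen had a part in the piRNA and rRNA differences was not tested; in cauda replicate 2, where these miRNAs were near 0, the level of pi-Rc3h1.1 was 3.97 CPM and that of 18S_rRNA was 40519 CPM.

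**Figure D4:**
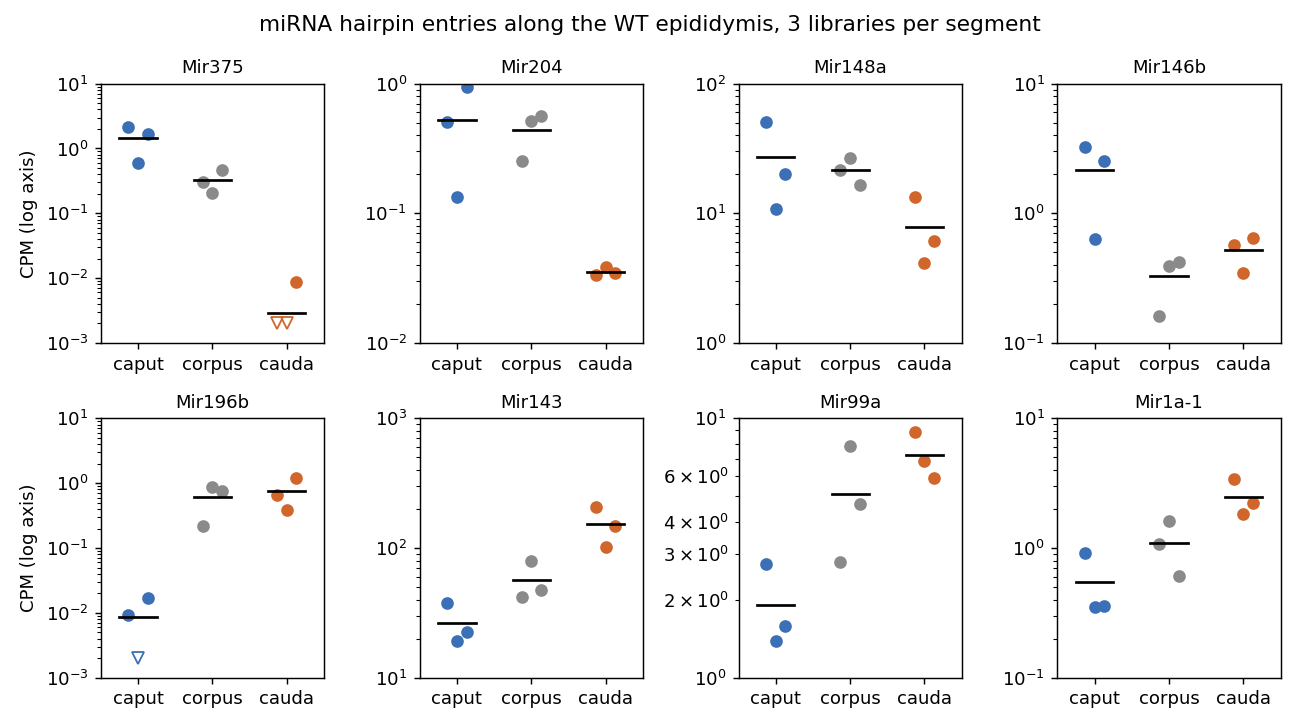
Levels (CPM, log axis) of miRNA hairpin entries in WT caput, corpus and cauda tissue, 3 libraries per segment as points, with open triangles for libraries at 0. Mir375 and Mir204 lie lower in every cauda library than in every caput library, and Mir196b and Mir143 lie higher.

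Among snoRNAs, the lean to the caput lay mainly in entries between genes or opposite one. Of the 457 tested, 10 were higher and 59 lower in the cauda, against 7.28% lower over all RNAs. The median log2 fold change was -0.22. Between genes or opposite one, 52 of 152 were lower (median -0.87). Of the 149 in introns of protein-coding genes, 4 were lower (median -0.09), and of the 16 in other introns, 3 were. None was lower in exons, with 88 tested in protein-coding and 52 in other genes. With the 6 libraries alone, 15 snoRNAs were lower. With the replicate block, 19 were higher and 73 lower. The number of lower calls moved with single libraries, to 5 without cauda replicate 3, 9 without cauda replicate 2, 13 without caput replicate 1 and 32 without caput replicate 2, and between 4 and 10 were higher with 1 library left out. Snord89, on 1:39548745-39548854 in an intron, was the exception in size. This box C/D snoRNA had 23.5, 30.1 and 30.0 CPM in the caput libraries and 1.19, 2.10 and 0.973 CPM in the cauda libraries, without overlap (log2 fold change -4.31, SE 0.64, adjusted p = 9.89e-05). In the corpus it had 11.4, 8.94 and 2.13 CPM. The scaRNA Gm22009, within an intron of Kpna4, went the other way, with 0.607, 0.695 and 0.572 CPM in the caput and 4.02, 3.82 and 3.002 CPM in the cauda (log2 fold change 2.53, SE 0.36, adjusted p = 6.07e-05), and was the 1 called among 27 scaRNAs.

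snRNAs, most of whose entries are copies of the spliceosomal RNAs, were called in both directions, 21 of 599 higher and 35 lower. Both are smaller shares than the 15.7% higher and 7.28% lower over all RNAs. With the replicate block, 46 were higher and 71 lower, and the median log2 fold change without it was -0.10. The lower calls numbered 14 without caput replicate 3, 20 without cauda replicate 1 or cauda replicate 3, and 8 without cauda replicate 2. Gm25134, within an intron of Opa3, had 14.1, 21.2 and 14.6 CPM in the caput and 66.6, 77.5 and 84.1 CPM in the cauda (log2 fold change 2.19, SE 0.36, adjusted p = 0.000247). Gm26020 had 21.5, 25.1 and 25.1 CPM against 7.40, 7.56 and 8.53 CPM (log2 fold change -1.61, SE 0.29, adjusted p = 0.000452). Both separated the segments. Of the 123 miscellaneous RNAs, 13 were lower, against 3 without caput replicate 3, 4 without cauda replicate 1, and 1 without cauda replicate 2 or cauda replicate 3. None of the 7 entries for 7SK, 7SL, vault, RNase P and RNase MRP RNAs and neither of the Y RNAs was called.

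Among the tRFs, single entries were lower in 67 of 606 cases and higher in 5, against 7.28% lower and 15.7% higher over all RNAs. Most of the lower ones were 3′ fragments (38 lower of 197) and fragments that match neither end, called other (28 lower of 210). The 5′ fragments held 3 higher and 1 lower of 199. With the 6 libraries alone, 12 of the 3′ fragments and none of the other fragments were lower. These calls, too, moved with single libraries. Without caput replicate 1, 18 of the 3′ fragments and none of the other fragments were lower, and without cauda replicate 2 these were 9 and none. Between 20 and 24 of the 3′ fragments were lower without caput replicate 3, cauda replicate 1 or cauda replicate 3. Without caput replicate 3, 9 of the 5′ fragments were higher, and none without caput replicate 1, caput replicate 2 or cauda replicate 3. Without caput replicate 2, 4 other fragments were lower, 49 without caput replicate 3, 18 without cauda replicate 1 and 5 without cauda replicate 3. As isodecoders share reads, tRFs were also summed by anticodon and fragment type and tested in a table of 3011 RNAs, of which 24.1% were called, 18.6% higher and 5.58% lower. Of the 150 sums, 2 were then higher and 1 lower.

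The 2 higher sums were 3′ fragments of SeC-TCA, the tRNA for selenocysteine, and 5′ fragments of Glu-TTC. SeC-TCA 3′ fragments had 25.9, 16.8 and 39.3 CPM in the caput and 49.7, 83.5 and 157 CPM in the cauda (log2 fold change 1.82, SE 0.54, adjusted p = 0.0189), and Glu-TTC 5′ fragments had 49.0, 32.5 and 90.5 CPM against 125, 135 and 398 CPM (log2 fold change 1.94, SE 0.61, adjusted p = 0.0262). Cauda replicate 3 was the highest library for both, and each call was lost without it, without caput replicate 1 or without caput replicate 2. The lower sum was that of Cys-GCA 3′ fragments, with 428, 464 and 710.4 CPM in the caput and 171, 182 and 289 CPM in the cauda (log2 fold change -1.32, SE 0.37, adjusted p = 0.0138), a call lost without caput replicate 3 (adjusted p = 0.0774), cauda replicate 1 (0.0650) or cauda replicate 2 (0.0637). With the replicate block, 6 sums were higher and 4 lower. The most abundant 5′ sum, Gly-GCC, picked out with its values known, was among those called with the block. It had 668, 361 and 1912 CPM in the caput and 1714, 1608 and 4900.3 CPM in the cauda, so the segments overlapped and within each number the cauda library was higher (log2 fold change 1.48, SE 0.73, adjusted p = 0.170 without the block, and 1.62, adjusted p = 2.40e-05 with it). Gln-CTG 3′ fragments had 3237, 2108 and 2013 CPM in the caput and 1642, 984 and 1255 CPM in the cauda, without overlap, at a log2 fold change of -0.92 (SE 0.36, adjusted p = 0.0775). tRNA locus entries were higher in 6 of 266 cases and lower in 1 (27 and 3 with the block), with 1 higher without caput replicate 2 and 14 without caput replicate 3. Their median of 0.38 fell to -0.05 with scaling to total counts. tRNA-iMet-CAT-1-1, for the initiator methionine tRNA and picked out with its values known, had 25.4, 17.2 and 55.6 CPM in the caput and 87.2, 97.5 and 278 CPM in the cauda (log2 fold change 2.24, SE 0.58, adjusted p = 0.00914). Of the 53 full-length tRNAs, 1 was higher.

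The corpus, which joins the ends, lay between them for most of these RNAs. Its mean was between those of caput and cauda for 714 of the 803 called RNAs, for 528 of the 549 higher and for 186 of the 254 lower ones. The called RNAs were chosen for a difference between the ends, which in itself favours an intermediate corpus mean. The share over all RNAs was not counted. The exceptions among the lower ones were mainly snoRNAs, of which 11 of 59 had an intermediate corpus mean. The 18S share of the counts was 1.05% ± 0.446 (SD, n = 3) in the corpus and the 28S share 3.90% ± 0.0775 (SD, n = 3), both between the ends. Mir375 had 0.305, 0.209 and 0.469 CPM in the corpus, below every caput library and above every cauda library, whereas Mir204 had 0.251, 0.511 and 0.567 CPM and overlapped the caput. Mir196b had 0.215, 0.859 and 0.753 CPM in the corpus, which overlapped the cauda and not the caput. The corpus against either end was not tested.

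In KO tissue, 598 RNAs were higher and 300 lower in the cauda than in the caput, which is 25.7% of the 3488 tested, 17.1% higher and 8.60% lower. Of the 549 RNAs higher in WT, 470 were also called higher in KO, and of the 254 lower ones, 110 were called lower, with none called in the opposite direction. Both contrasts came from a joint fit, so the KO libraries shaped the filter, the scaling and the estimate of spread behind the WT calls. With the 6 WT libraries alone, 483 RNAs were higher and 87 lower in WT. 18S_rRNA rose by 4.45 on the log2 scale in KO, 28S_rRNA_1 by 3.43, SSU_mito by 5.63 and pi-Rc3h1.1 by 3.999. Mir375 fell by 7.11, Snord89 by 3.68 and Mir148a by 1.99, while Mir196b rose by 5.35, Mir143 by 1.99 and Mir99a by 1.32. All of these passed the test in KO. Of the 72 5S repeats lower in WT, 69 had a negative log2 fold change in KO and 7 were called lower there. For single RNAs, the interaction of segment and genotype gave 0 calls at an adjusted p under 0.05 in edgeR, with 211 at an unadjusted p under 0.05 and a lowest adjusted p of 0.342. With the replicate block it gave 16, which were 14 repeats of 28S rRNA, a tRNA-Glu-TTC-2 5′ fragment and the snRNA Gm25106, each with a larger log2 fold change in WT. rmsk_28S_390, for instance, had 5.78 in WT and 3.92 in KO.

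The same segments were also compared in luminal fluid, which was sequenced with another protocol. Of the 2023 RNAs tested in WT fluid, 25.1% were called, 196 higher in the cauda (9.69%) and 312 lower (15.4%). Of the RNAs higher in cauda tissue, 378 could be tested in fluid, and there 40 were higher and 64 lower. None of 190 genic piRNA entries was higher in cauda fluid and 45 were lower. For the 28S repeats, 27 of 79 were higher and 3 lower. 28S_rRNA_1 and 28S_rRNA_2 were lower in cauda fluid, by log2 fold changes of -1.24 (SE 0.32, adjusted p = 0.00728) and -1.10 (SE 0.30, adjusted p = 0.0108), and 18S_rRNA had 0.81 (SE 0.29, adjusted p = 0.0450), under the threshold of fold change. SSU_mito had -1.07 (SE 0.48, adjusted p = 0.0972). Tissue and fluid come from different protocols and tables, and the difference between their fold changes was not tested.

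All 7 miRNAs that were lower in cauda tissue could be tested in fluid, and 5 were lower there too. Mir204 had a fluid log2 fold change of -3.11 (SE 0.41, adjusted p = 3.15e-05), Mir375 of -1.84 (SE 0.53, adjusted p = 0.0141) and Mir146b of -1.85 (SE 0.53, adjusted p = 0.0141). Mir148a had -1.20 (adjusted p = 0.0262) and Mir135a-2 had -1.62 (adjusted p = 0.0102), whereas Mir20a (-0.50) and Mir320 (0.69) did not pass. Of the miRNA entries higher in cauda tissue, 37 could be tested, and 9 were higher and 6 lower in cauda fluid. Mir196b had 5.09 (SE 0.98, adjusted p = 0.00107), Mir196a-1 had 3.70 (SE 1.16, adjusted p = 0.0234) and Mir99a had 1.14 (SE 0.36, adjusted p = 0.0238). Mir143, at 1.26 (SE 0.51, adjusted p = 0.0704), and Mir1a-1, at 0.66 (adjusted p = 0.431), did not pass in fluid. Mir146, the gene of miR-146a, picked out with its values known, had a tissue log2 fold change of 1.80 (adjusted p = 0.0496) with a mean of 0.0665 CPM in the caput, and 1.08 (adjusted p = 0.207) in fluid, against the lower levels of Mir146b in the cauda in both.

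**Figure D5:**
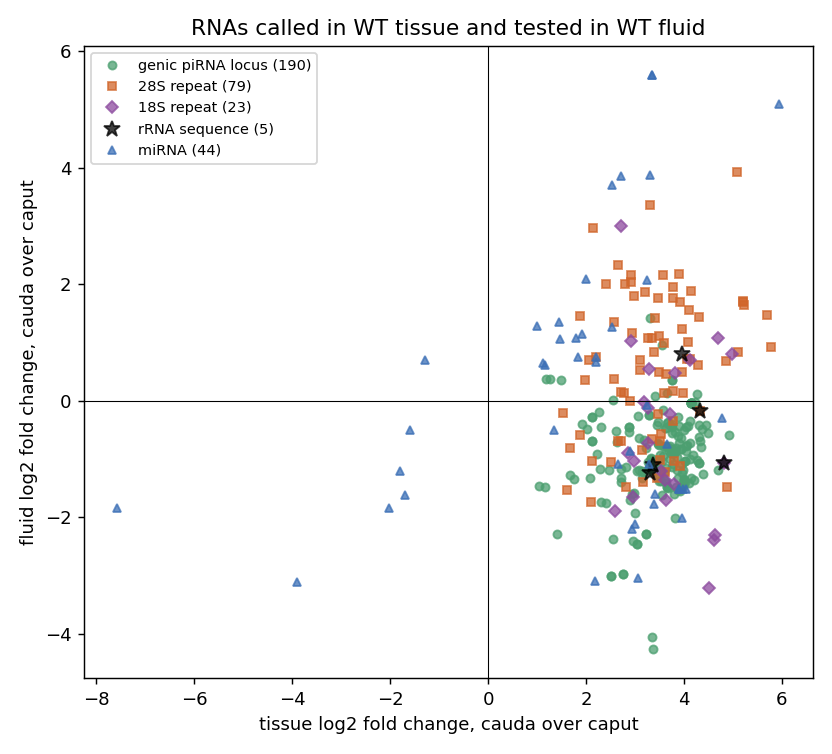
Log2 fold change between WT cauda and WT caput in tissue (horizontal axis) and in luminal fluid (vertical axis) for RNAs called in tissue and tested in fluid; each point is an RNA, by class, and the lines mark 0. Over all classes, also those not drawn, 378 RNAs higher in cauda tissue were tested in fluid, where 112 had a positive and 266 a negative fold change. The median fluid log2 fold change of all 1830 RNAs tested in both was -0.21.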

How the data were processed

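The deposited tables hold whole-number counts. Per the labels and the study's methods, the authors treated total RNA with PNK, built ARM-seq (tissue) or OTTR-seq (fluid) libraries, trimmed reads (the submitters' notes name cutadapt and UMI-tools), aligned them (bowtie2) against the mm10 genome, rRNA sequences and mature tRNAs, and counted each read on every feature matched equally well, without normalization. The strand used in counting is not given in the sources used here. Sperm libraries were not used.

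The 17 tissue libraries were fitted together in edgeR 4.0.16 (R 4.3.3; filterByExpr with minimum count 10 and minimum total 15, TMM, quasi-likelihood test), and the 18 fluid libraries likewise. For shares and class medians, exact permutation tests (2-sided) were used. Log2 CPM used a prior count of 2. Intervals cover counting error only. Entry positions come from GENCODE annotation of mm10. Same-numbered caput and cauda libraries deviated together (r = 0.306, 0.394 and 0.633 over RNAs), so the replicate number was used as a block in an alternative. The fit was tested on simulated data. Other alternatives were DESeq2 (1.42.0), other scalings, no filter, 6 libraries alone, a single entry (the most counted) for each rRNA type and each tRF sum, other denominators of shares, and leaving out each library.

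Members and lists were chosen with earlier results of these data known. RNAs to name were taken from, by class, the called RNAs with separate groups and the smallest p (6 per direction for miRNAs, 3 for others), the rRNA sequences, the 10 most abundant miRNA entries and called members of the lists. Exceptions are marked.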

Additional observations from a re-analysis of the deposited data

Results flagged for a closer look

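Some RNAs moved one way in every tissue library and the opposite way in every fluid library of the same segments, so that the direction of the difference between cauda and caput was opposite in tissue and fluid. The difference between the tissue and fluid fold changes was not tested. The log2 fold changes in tissue and in fluid were 3.31 and -1.24 for 28S_rRNA_1, 3.37 and -1.10 for 28S_rRNA_2, and 4.82 and -1.07 for SSU_mito and for rmsk_18S_0, which has the same counts. They were 4.12 and -1.003 for pi-Rc3h1.1, a genic piRNA entry. The entries in Rpl19 and its pseudogenes had 4.05 and -1.52 (Gm27597), 3.99 and -1.52 (Gm27907), 3.89 and -1.52 (Gm27529) and 3.90 and -1.52 (Gm27288). Among snRNAs, the values were 2.19 and -0.80 for Gm25134, 2.17 and -1.06 for Gm24200, 2.03 and -1.01 for Gm23518 and, the other way round, -1.44 and 1.96 for Gm25005. In fluid, the 28S sequences and the Rpl19 entries passed the test, whereas SSU_mito, rmsk_18S_0, pi-Rc3h1.1 (adjusted p = 0.102 in edgeR) and the snRNAs Gm25134, Gm24200, Gm23518 and Gm25005 did not.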

How the results depend on the processing

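The larger part of the limits lies on the lower calls and on the tRFs. The single RNAs higher in the cauda numbered 338 with the most counted entry (from a table of fewer entries) and 497 to 547 with 1 library left out, and those lower 398 with TMM factors computed without tRFs, tRNAs and rsRNAs, 87 with 6 libraries only, 128 with the most counted entry and 59 to 234 with 1 library left out. In KO tissue, scaling to total counts gave 391 higher and 641 lower. Of the tRF sums, 0 were higher with total counts, with such TMM factors and with 6 libraries only, 6 with the replicate block and 0 to 3 with 1 library left out, and those lower were 15 with DESeq2 size factors, 7 with total counts, 14 with such TMM factors, 2 with no filter, 16 with DESeq2, 7 with 6 libraries only, 4 with the replicate block and 0 to 7 with 1 library left out. The interaction gave 16 with the replicate block, and of the named RNAs and lists the block changed no call in the 17 libraries beside those given with the results and that of the other Cys-GCA fragments, which were lower with it (-1.01), whereas in the 6 libraries alone it made 5_8S_rRNA higher (1.07). The cause of these shifts was not tested.

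Directions that turned were those of small differences. The log2 ratio of the share was -0.54 without 5S repeats, -0.26 with the most counted entry and -0.84 to 0.63 with 1 library left out for tRF 5′ fragments, -0.076 without 5S repeats for intergenic piRNA loci, and -0.24 to 0.087 with 1 library left out for snRNAs. The difference of the class median of log2 CPM became -0.34 with total counts and -0.18 with such TMM factors for full-length tRNAs (-0.22 to 0.475 with 1 library left out), -0.51 and -0.35 for snoRNAs (-0.053 to 0.11), and -0.24 and -0.079 for tRNA loci. With 1 library left out it ran from -0.13 to 0.049 for scaRNAs, from -0.15 to 0.092 for snRNAs and from -0.38 to 0.26 for 3′ tRFs. Single RNAs that turned, none of them called, were 5S_rRNA (-0.14, total counts), the tRF sums Gln-CTG tRF_other (-0.093 with DESeq2 size factors and DESeq2, -0.33 with total counts, -0.27 with such TMM factors) and Gly-GCC tRF_other (-0.18 and -0.085 with the latter pair), and abundant entries listed as miRNAs, several within 7SL RNA genes, Gm49346 (-0.060 with total counts, -0.10 scaled among miRNAs), Gm47301 (-0.43 with total counts, -0.087 with such TMM factors, -0.43 among miRNAs, and -0.13 to 1.42 with 1 library left out), Gm47295 (-0.93 to 0.17), Gm47299 (-0.92 to 0.17), Snord43 (-1.36 to 0.062), Gm47304 (-0.80 to 0.068), Gm47287 (-0.43 to 0.26) and Gm47305 (-0.43 to 0.25).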
